A study of Mus musculus with 6 samples.

Results

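The genes described here are 54 transcription factors that pattern the mesenchyme of limb, face and trunk and lie outside the Hox clusters, read in immortalized mouse embryonic fibroblasts with and without FHL2. They were chosen by name, with earlier results of these data known, and make up 54 of the 18193 genes measured. Each gene was represented by the probe set that carried its symbol alone and had the highest mean over the 6 arrays, and the 54 genes had 120 such probe sets in all. Knockout cells came from FHL2-/- mice and were represented by 3 clones named E, H and J. Wild type cells came from WT mice and were represented by another 3, named E, F and I. All 6 clones had become immortal spontaneously in culture, and each was hybridised to 1 Affymetrix array. The labels call the clones of a genotype biological replicates but do not say whether they came from separate embryos, so p-values measure the spread between clones. The sources used here give no strain, passage or embryonic age. Readings of single clones are listed in alphabetical order of the clone letters.

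Fibroblasts grown from embryos keep part of the transcription factor code of the place in the body from which they came. Within that code, paired-related, Twist and Msx factors are known from limb bud and facial mesenchyme, and some T-box factors act in the fore- and hindlimb. Odd-skipped, GATA and forkhead factors act in mesoderm of the trunk and its organs, Pax and Meox factors in somites, and Snail and Zeb factors in the loss of epithelial character. FHL2, an adaptor made of LIM domains, binds transcription factors such as AP-1 subunits and beta-catenin.

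Values are log2 intensities made by the authors with RMA, which corrects background, normalizes arrays and combines the probes of a set. Differences are knockout minus wild type in log2 units, each with its standard error (SE) from limma fitted over all genes and n = 3 clones per genotype, and a gene is said to rise or fall where the Benjamini-Hochberg adjusted p lay under 0.05. Fhl2 read 6.01, 6.44 and 6.57 in knockout clones, against 9.88, 8.57 and 9.64 in wild type clones (difference -3.02, SE 0.35, limma adjusted p = 0.00400; exact two-sided permutation p = 0.1, the smallest that 3 against 3 allow). Of 9 fibroblast markers 8 were measured and all 8 were expressed in both genotypes, at a mean level of 12.28 to 12.35 in knockout clones and of 12.12 to 12.37 in those of wild type. Single fibroblast markers differed in both directions. Pdgfra rose by 1.76 (adjusted p = 0.0247), Thy1 fell by 1.34 (0.0262) and Pdgfrb by 0.64 (0.0321), while the other 5 did not pass. Among markers of other cell types, 0 of 4 skeletal muscle, 0 of 5 endothelial, 1 of 6 epithelial, 1 of 5 blood and 1 of 4 measured neural markers were expressed in all clones of a genotype. The endothelial receptor gene Tek nevertheless read 8.36, 4.68 and 8.91 in knockout clones, against 3.27, 3.31 and 2.54 in wild type clones, while Pecam1 and Cdh5 averaged 3.49 and 3.67 in knockout clones, against 3.24 and 3.30 for wild type. Tubb3, a neuronal tubulin, read 3.90 to 6.49 in knockout clones, against 7.27 to 8.94 in wild type clones. The mean level of the 5 endothelial markers was 3.45 to 4.52 in knockout clones, against 2.95 to 3.25 in wild type clones. Of these 5 markers Tek alone passed (difference 4.27, limma adjusted p = 0.0378). Cdh5, Pecam1, Emcn and Tie1 differed by 0.37, 0.25, 0.02 and -0.17 and did not pass. The mean level of the 4 neural markers was 4.02 to 4.64 in knockout clones, against 4.69 to 5.08 in wild type clones. Tubb3 alone was lower among these 4. Gfap, Sox10 and Sox2 differed by 0.31, 0.13 and 0.04 and did not pass. The 6 epithelial markers had a mean level of 4.41 to 4.63 in knockout clones, against 4.30 to 4.36 in wild type clones. Whether these markers had a part in the results was not tested. Knockout clone H stood apart from the other clones in Xist, at 9.82 against 4.69 to 5.11 elsewhere, and in the Y-linked gene Kdm5d, at 2.34 where the other 5 clones all lay above their array median. Eif2s3y, also Y-linked, read 2.9 in clone H, against 7.7 and 8.8 in knockout clones E and J. By these transcripts clone H read as female and the other 5 clones as male. Whether sex had a part in the differences of clone H was not tested. In cultured clones a lower share of cells with a transcript and less transcript per cell cannot be told apart.

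A gene was counted as expressed in a genotype when it lay at or above the median over all genes of the array (5.81 to 5.90) in all 3 clones. Fhl2, the targeted gene, itself counted as expressed in both genotypes under this rule, with all 3 knockout clones above their array medians. The rule is thus a rank on the array and does not show presence or absence of a gene product. By that measure 30 of the 54 patterning factors were expressed, 21 in both genotypes, 2 in knockout clones alone and 7 in wild type clones alone, and 24 in neither. The share of 55.6% stood beside 50.9% of all genes. The 21 shared factors were both Prrx and both Twist genes, Osr1, Tbx15, Tbx18, Emx2, Foxc1, Foxf1, Foxp1, Six4, Meis2, Pbx2, Pbx3, Shox2, Irx5, Snai1, Snai2, Zeb1 and Zeb2. Osr2 and Irx3 met the criterion in knockout clones alone, and Tbx3, Tbx5, Foxc2, Meis1, Lhx9, Hand2 and Gata6 in wild type clones alone. Pitx1 and Tbx4, which act in the hindlimb, met it in neither. Nor did any Dlx, Msx, Alx, Pax or Meox gene, nor Tbx2, Tbx20, Foxd1, Foxf2, Six2, Barx1, Lhx2, Tcf21 or Gata4. Of these 24 genes, 19 did not differ past the threshold and 5 did (20.8%), 4 upward and 1 downward. Over all genes 19.0% passed, and 32.1% of those expressed in at least 1 genotype. The share among all genes expressed in neither therefore lay below 19.0%. These shares are a description and not a test.

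Between genotypes, 11 of the 54 factors rose in knockout clones, 9 fell and 34 did not pass. Over all genes 19.0% passed, 9.04% upward and 10.0% downward, against 37% of the patterning factors. Because the factors were chosen with earlier results of these data known, the shares in this paragraph are a description. They do not test whether patterning factors differ more often than other genes. Among genes expressed in at least 1 genotype, 15 of 30 patterning factors passed beside 32.1% of all such genes. A difference of at least 2-fold that passed was found for 15 factors, beside 8.22% of all genes. In 25 factors, or 46.3%, all knockout readings lay on one side of all wild type readings, beside 38.9% of all genes. The median size of the difference, regardless of sign, was 0.59 over the 54 factors and 0.23 over all genes, while the medians with sign were 0.14 and 0.04, so the factors moved in both directions. The 20 that passed were Prrx2, Twist1, Dlx1, Dlx2, Osr1, Osr2, Foxd1, Meis2, Irx3, Meox1 and Snai1 upward, and Tbx3, Tbx5, Emx2, Foxc2, Pax3, Lhx9, Shox2, Hand2 and Gata6 downward. In the 6 fits that each leave out 1 clone, 12 of the 20 passed every time: Prrx2, Twist1, Dlx2, Osr1, Osr2, Irx3, Snai1, Tbx3, Tbx5, Pax3, Lhx9 and Hand2. The matching share over all genes is not given here. The count of 12 therefore does not show whether these factors held better than other genes. When knockout clones E, H and J were left out in turn, 17, 22 and 14 factors passed, and when this was done for the wild type clones, 13, 13 and 16 passed. The share over all genes moved with these counts, to 11.4%, 26.1% and 9.53% without the knockout clones and to 9.13%, 10.5% and 11.8% without those of the wild type.

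**Figure D1:**
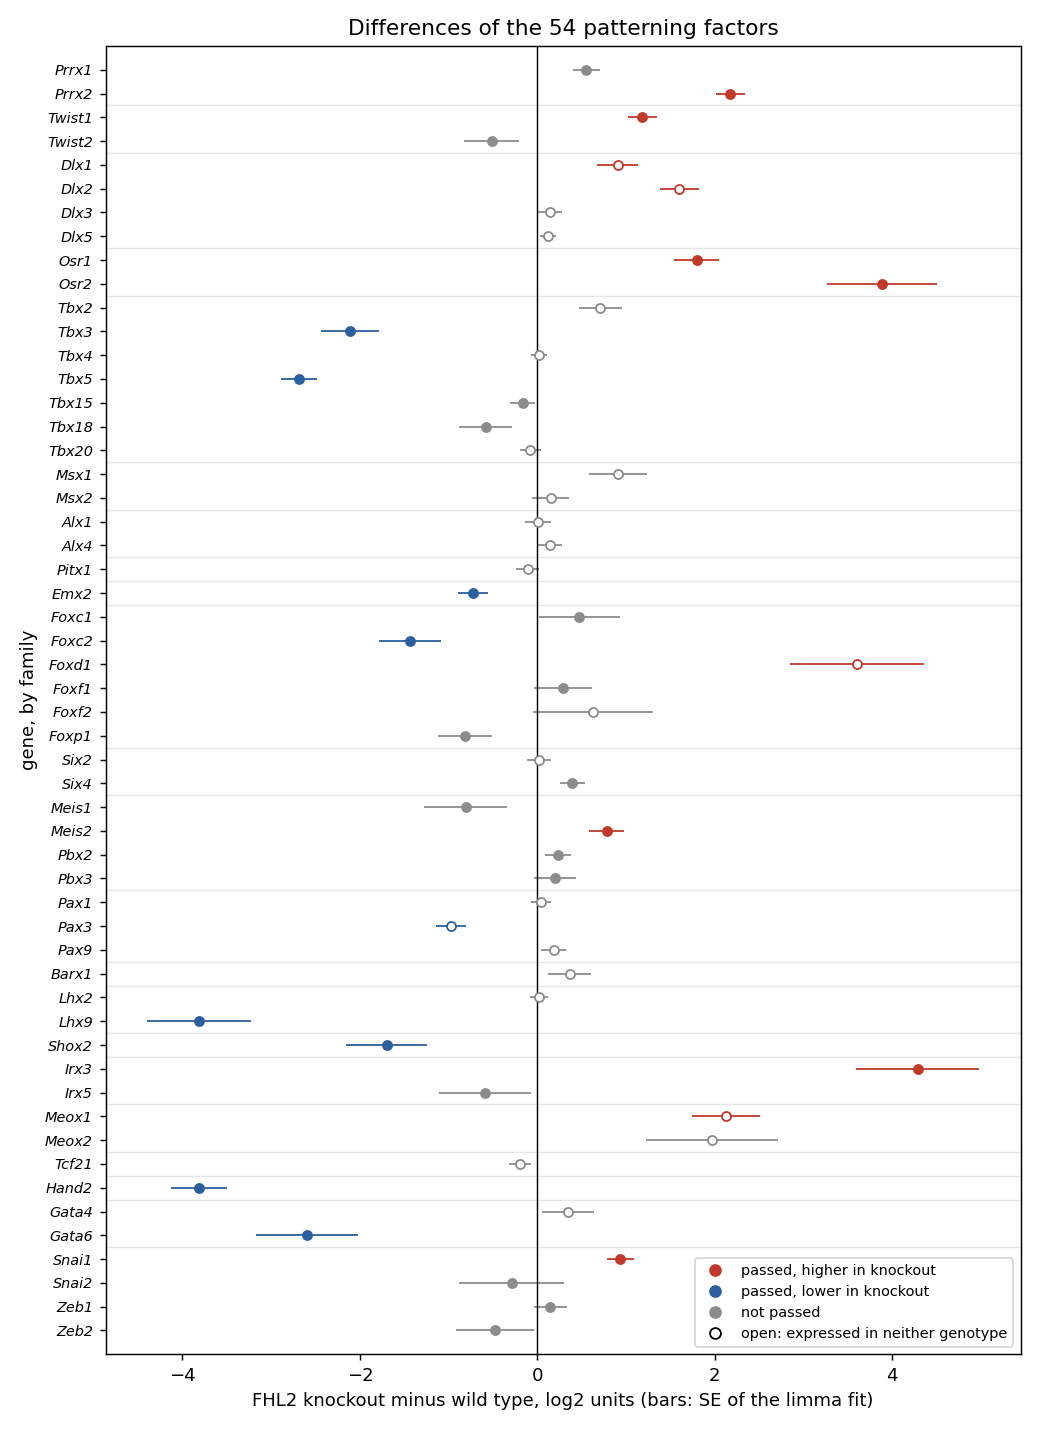
Difference between FHL2 knockout and wild type clones for the 54 patterning factors, in log2 units, grouped by family from top to bottom, with bars for 1 SE from limma (3 clones of each genotype). Red points passed and were higher in knockout clones (11 genes), blue points passed and were lower (9 genes), grey points did not pass (34 genes), and open points mark the 24 genes expressed in neither genotype. Irx3 and Osr2 lie farthest to the right and Hand2 and Lhx9 farthest to the left, while Irx5, beside Irx3, lies near 0.

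Promoter sequences are shown for the factors with the largest rise and one of the largest falls, Irx3 and Hand2, and for Twist1 and Snai1, where 1 of the motifs searched was found. They are RefSeq windows of build GRCm38.p6 with 250 bases before and 50 bases after the annotated start, printed 5′ to 3′ on the strand of the gene: Irx3 at chr8:91801605-91801904 on the minus strand, Twist1 at chr12:33957421-33957720, Snai1 at chr2:167537945-167538244 and Hand2 at chr8:57320733-57321032 on the plus strand. Capitals mark motif matches.
Irx3: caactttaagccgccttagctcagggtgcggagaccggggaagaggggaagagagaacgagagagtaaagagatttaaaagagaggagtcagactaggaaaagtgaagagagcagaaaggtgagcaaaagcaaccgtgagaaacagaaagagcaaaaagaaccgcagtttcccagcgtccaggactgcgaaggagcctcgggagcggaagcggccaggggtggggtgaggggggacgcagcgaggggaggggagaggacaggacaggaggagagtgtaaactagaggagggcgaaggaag
Twist1: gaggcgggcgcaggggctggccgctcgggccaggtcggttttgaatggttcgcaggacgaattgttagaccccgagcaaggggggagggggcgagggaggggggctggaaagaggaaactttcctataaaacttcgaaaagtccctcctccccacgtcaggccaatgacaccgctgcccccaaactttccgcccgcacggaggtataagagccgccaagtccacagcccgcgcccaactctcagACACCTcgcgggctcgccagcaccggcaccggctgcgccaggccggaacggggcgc
Snai1: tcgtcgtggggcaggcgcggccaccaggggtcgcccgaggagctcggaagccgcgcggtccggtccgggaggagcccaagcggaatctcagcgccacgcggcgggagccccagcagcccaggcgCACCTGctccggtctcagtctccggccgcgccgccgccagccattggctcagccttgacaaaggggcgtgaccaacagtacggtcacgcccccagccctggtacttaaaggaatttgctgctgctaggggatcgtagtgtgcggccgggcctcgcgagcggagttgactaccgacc
Hand2: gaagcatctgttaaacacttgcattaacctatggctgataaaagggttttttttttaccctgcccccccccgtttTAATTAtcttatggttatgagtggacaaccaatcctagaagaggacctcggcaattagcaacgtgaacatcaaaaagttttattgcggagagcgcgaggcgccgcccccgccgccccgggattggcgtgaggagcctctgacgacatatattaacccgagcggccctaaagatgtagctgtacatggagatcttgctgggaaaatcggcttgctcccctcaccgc
The motifs, searched on both strands, were TGANTCA (AP-1), ATCAAAG (TCF/LEF, the partners of beta-catenin), TAATTA (homeodomain core), AGGTGT (T-box core) and CAGGTG (an E-box bound by Snail and Zeb factors); the last 2 overlap in CAGGTGT. The capitals in Hand2 are the homeodomain core (bases 76 to 81 of the window), those in Twist1 the T-box core on the minus strand (bases 245 to 250) and those in Snai1 the E-box on the minus strand (bases 125 to 130). The Irx3 window held no match. Windows were at hand for 33 of the 54 factors and for 12 of the 20 that passed. Of those 12 genes, 0 held the AP-1 motif and 0 the TCF/LEF motif, 2 the homeodomain core (Emx2 and Hand2), 1 the T-box core (Twist1) and 2 the E-box (Dlx2 and Snai1). Among all 32851 windows of the table the shares were 7.81%, 3.73%, 5.29%, 13.7% and 20.2% in the order in which the motifs are named. A match describes the letters of the window alone.

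Among the T-box factors, both members of a neighbouring gene pair fell and the others did not pass. Tbx5, which starts the forelimb bud and acts in heart development, read 4.02, 4.43 and 4.20 in knockout clones, against 6.84, 7.27 and 6.59 in wild type clones. All knockout readings lay below the array median and all wild type readings above it, and Tbx5 fell by 2.68 (SE 0.20, adjusted p = 0.00139). A second Tbx5 probe set differed by -0.53 and did not pass (adjusted p = 0.146), and with both averaged the fall was 1.61. Tbx3, a repressor of limb, mammary gland and heart, read 5.18, 6.53 and 5.82 in knockout clones, against 8.15, 7.93 and 7.80 in wild type clones. It fell by 2.11 (SE 0.33, adjusted p = 0.00883), with knockout clone H nearest to wild type. Over all 5 probe sets of Tbx3 the mean fall was 1.07. No measured gene lies between Tbx3 and Tbx5 on chromosome 5 in the RefSeq order. Tbx15, a factor of skeletal and skin mesenchyme, differed by -0.16 (SE 0.14) and Tbx18, of somites, epicardium and ureter, by -0.58 (SE 0.30), both expressed in all 6 clones. Tbx2 and Tbx4 are neighbours in the same way on chromosome 11 and differed by 0.71 and 0.01, with neither expressed nor past the threshold.

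Hand2, a basic helix-loop-helix factor that acts upstream of Shh in the posterior limb bud, shared the largest fall of the 54 genes with Lhx9. It read 3.76, 4.51 and 4.03 in knockout clones, against 7.81, 8.49 and 7.43 in wild type clones. The groups lay apart on either side of the array median, and Hand2 fell by 3.81, a measured 14.1-fold (SE 0.31, adjusted p = 0.00164). A second probe set fell by 2.15 (adjusted p = 0.00306), the third differed by -0.53 (adjusted p = 0.266), and the mean over all 3 fell by 2.17. Lhx9, a LIM homeobox factor of limb bud and gonad, read 3.82, 3.32 and 5.56 in knockout clones, against 8.46, 8.18 and 7.49 in wild type clones. It fell by 3.81, or 14-fold (SE 0.59, adjusted p = 0.00862), with knockout clone J the least low. All 4 Lhx9 probe sets passed downward, and their mean fell by 2.22. Shox2, which is needed for the proximal limb skeleton and the sinoatrial node, read 8.06, 9.76 and 8.07 in knockout clones, against 10.43, 10.32 and 10.23 in wild type clones. It stayed above the array median in every clone. Its fall of 1.70 (SE 0.45) passed narrowly (adjusted p = 0.0462). It no longer passed when knockout clone E (0.124) or J (0.138) was left out, or any clone of the wild type (0.109 to 0.142). Without knockout clone H, where it was least lowered, it fell by 2.26 (adjusted p = 1.42e-04). Knockout readings of Tbx5, Hand2 and Lhx9 all lay below the array median, and no call of signal over background was used here.

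Gata6, a zinc-finger factor of heart and other mesoderm, read 5.24, 7.09 and 6.93 in knockout clones, against 8.94, 9.78 and 8.33 in wild type clones. It fell by 2.60 (SE 0.58, adjusted p = 0.0265), or by 1.69 with its 3 probe sets averaged. It did not pass with knockout clone J left out (0.0579), nor with clone E (0.0894) or F (0.0815) of the wild type left out. Gata4 was not expressed and differed by 0.34. Foxc2, a forkhead factor of paraxial mesoderm and lymphatic vessels, read 6.11, 6.20 and 5.58 in knockout clones, against 8.18, 7.08 and 6.94 in wild type clones. Wild type clone E was the highest, and Foxc2 fell by 1.44 (SE 0.35, adjusted p = 0.0364). That call did not hold with knockout clone E (0.0812) or J (0.116) left out, nor with wild type clone F left out (0.0691). Emx2, a homeobox factor of the urogenital system and shoulder blade, read 7.23, 7.51 and 7.70 in knockout clones, against 8.22, 8.41 and 7.98 in wild type clones. Emx2 fell by 0.72 (SE 0.17, adjusted p = 0.0309), but not past the threshold when knockout clone E (0.0808) or wild type clones E (0.101) or F (0.0936) were left out. Pax3, a regulator of the dermomyotome and neural crest, read 4.23, 4.57 and 4.73 in knockout clones, against 5.25, 5.60 and 5.59 in wild type clones. All 6 readings lay below the array median, though the groups did not overlap (difference -0.97, SE 0.17, adjusted p = 0.0124) and all 3 Pax3 probe sets passed downward. Pax1 and Pax9 of the sclerotome differed by 0.04 and 0.18 and did not pass.

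**Figure D2:**
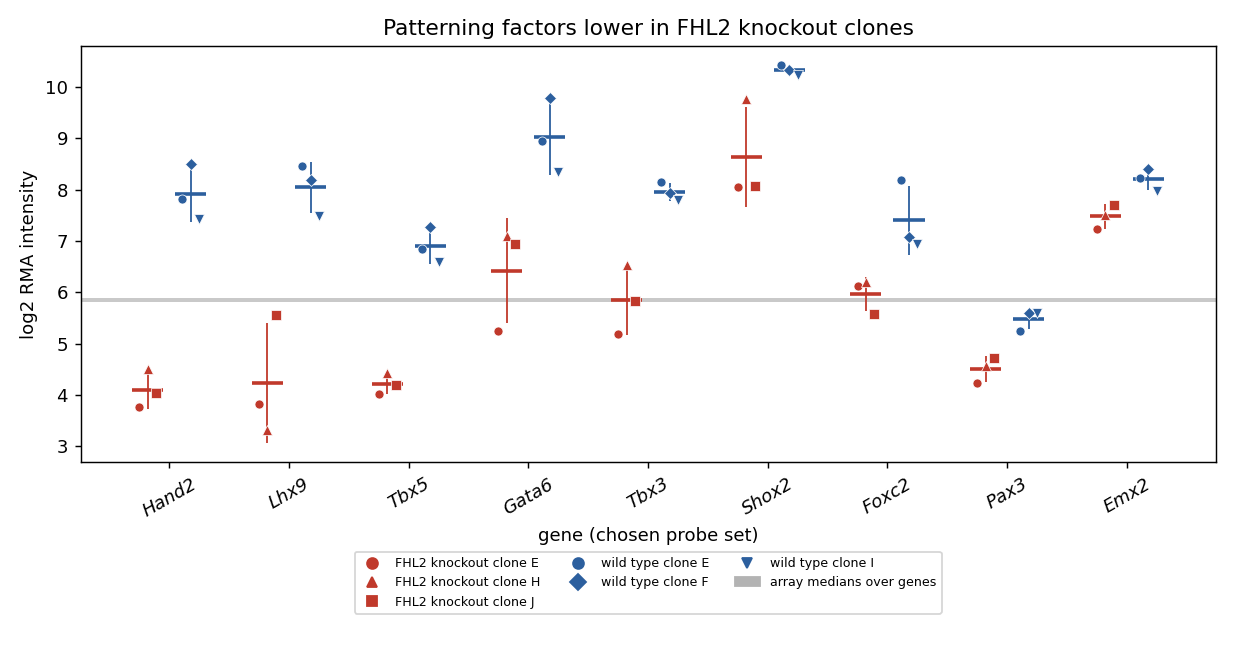
Log2 RMA intensity of the 9 patterning factors that fell, with 1 point per clone, horizontal bars for group means and vertical lines for 1 SD (n = 3 clones per genotype; FHL2 knockout red, wild type blue). The grey band spans the medians of the 6 arrays over all genes (5.81 to 5.90). Knockout points of Hand2, Lhx9 and Tbx5 lie below the band and their wild type points above it, while Shox2 and Emx2 lie above it in all clones.

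The largest rise was that of Irx3, an Iroquois homeobox factor of limb bud and heart. It read 9.69, 7.34 and 8.64 in knockout clones, against 3.97, 3.52 and 5.33 in wild type clones. Every knockout reading lay above the array median and every wild type reading below it. Irx3 rose by 4.28, a measured 19.5-fold (SE 0.69, adjusted p = 0.00993). Its relative Irx5, separated from it on chromosome 8 by 1 measured gene, read 9.26, 7.58 and 8.44 in knockout clones, against 9.01, 9.78 and 8.26 in wild type clones. The genotypes overlapped for Irx5 (difference -0.59, SE 0.52, adjusted p = 0.489). Irx1 and Irx2 of the other Iroquois cluster differed by 0.71 and 0.79 and did not pass (adjusted p = 0.204 and 0.272).

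Both odd-skipped genes rose. Osr1, a zinc-finger factor needed for kidney and heart septa, read 11.08, 10.89 and 11.19 in knockout clones, against 9.35, 9.71 and 8.71 in wild type clones. The rise was 1.80 (SE 0.26, adjusted p = 0.00688) on a gene expressed in every clone. Osr2, which promotes growth of the palate, read 10.25, 8.37 and 9.65 in knockout clones, against 5.80, 6.35 and 4.48 in wild type clones. It rose by 3.88, or 14.7-fold (SE 0.62, adjusted p = 0.00972), and knockout clone H was the least raised. A second Osr2 probe set with lower readings rose by 1.40 (adjusted p = 0.0485).

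In the Prrx and Twist families 1 member of each rose. Prrx2, a paired-related homeobox factor of limb and facial mesenchyme, read 10.75, 10.17 and 10.49 in knockout clones, against 8.27, 8.31 and 8.31 in wild type clones. The groups were tight and far apart, and the rise was 2.18 (SE 0.16, adjusted p = 0.00130), or 4.52-fold. Prrx1 read 10.78, 11.12 and 11.21 in knockout clones, against 10.56, 10.60 and 10.31 in wild type clones. Its groups did not overlap, but the difference of 0.55 (SE 0.15) narrowly missed the threshold (adjusted p = 0.0520); 1 of its 5 other probe sets passed upward (0.88, adjusted p = 0.0162). Twist1, a helix-loop-helix factor of cranial and limb mesenchyme, read 9.28, 9.60 and 9.83 in knockout clones, against 8.27, 8.37 and 8.53 in wild type clones. Twist1 rose by 1.18 (SE 0.16, adjusted p = 0.00633), while Twist2, of dermal mesenchyme, differed by -0.51 (SE 0.31, adjusted p = 0.306) with overlapping groups.

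In the Snail and Zeb family Snai1 passed and the other 3 members did not. Snai1, known as a repressor of epithelial genes, read 8.50, 8.70 and 8.85 in knockout clones, against 7.71, 7.99 and 7.56 in wild type clones. The rise was 0.93 (SE 0.15, adjusted p = 0.0105). The 40 nearest measured genes around Snai1 on chromosome 2 had a median that was higher by 0.49 in knockout clones, and with that median subtracted in each clone the rise was 0.45 and did not pass (adjusted p = 0.228). Snai2, Zeb1 and Zeb2 differed by -0.29, 0.15 and -0.48, all expressed in the 6 clones. Among the 6 epithelial markers, Epcam, expressed in all clones, rose by 0.43 (SE 0.10, adjusted p = 0.0327). Its value came from a probe set ending _x_at, a type dropped in the alternative that removes _x_at, _s_at and _a_at sets. Cldn7, Krt5, Cdh1, Cldn4 and Krt14 differed by 0.61, 0.33, 0.02, -0.08 and -0.15 and did not pass, with groups apart for Cldn7 and Krt5. Those 5 markers read below the array median in every clone.

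Dlx1 and Dlx2, distal-less factors of the pharyngeal arches and forebrain, are neighbours on chromosome 2 and rose together, though on readings below the array median in every clone. Dlx2 read 5.21, 4.62 and 5.42 in knockout clones, against 3.54, 3.60 and 3.31 in wild type clones (difference 1.60, SE 0.22, adjusted p = 0.00633). Dlx1 read 5.14, 4.51 and 4.54 in knockout clones, against 3.47, 4.10 and 3.89 in wild type clones. Its rise of 0.91 (SE 0.23, adjusted p = 0.0403) passed in 1 of the 6 fits that leave out a clone, the one without knockout clone H (0.0609 to 0.120 in the others). Dlx3 and Dlx5 differed by 0.14 and 0.12 and did not pass.

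The Msx, Alx, Pitx and Barx genes did not pass. Msx1, a homeobox repressor of tooth, palate and limb, read 5.62, 6.93 and 6.01 in knockout clones, against 5.26, 5.16 and 5.42 in wild type clones. Its groups lay apart, but the difference of 0.91 (SE 0.32) missed the threshold (adjusted p = 0.103). On a second Msx1 probe set the groups overlapped (difference 0.26, adjusted p = 0.471). Msx2 differed by 0.15, Alx1 by 0.00, Alx4 by 0.14, Pitx1 by -0.11, Barx1 by 0.36 and Lhx2 by 0.02. Tbx20 of the heart and Tcf21 of visceral mesenchyme and epicardium differed by -0.08 and -0.20. Of the forkhead factors, Foxc1 read 8.07, 8.49 and 6.72 in knockout clones, against 7.06, 7.12 and 7.68 in wild type clones. The groups overlapped (difference 0.47, adjusted p = 0.528), as they did for Foxf1 (0.29, adjusted p = 0.591).

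Meox1, a homeobox factor of somites, read 5.84, 6.11 and 7.27 in knockout clones, against 4.28, 3.99 and 4.58 in wild type clones. It rose by 2.12 (SE 0.38, adjusted p = 0.0136). Leaving out clone E (0.0573) or F (0.0529) of the wild type ended the call. Knockout clone E lay just below its array median, so Meox1 did not count as expressed. Meis2, a cofactor of Hox proteins in the proximal limb, read 8.73, 8.94 and 8.56 in knockout clones, against 7.78, 8.37 and 7.75 in wild type clones. Its rise of 0.78 (SE 0.20, adjusted p = 0.0398) passed in 1 of the 6 fits that leave out a clone, the one without wild type clone F (0.0579 to 0.132 in the others). It did not pass either with arrays centred on their medians (0.70, adjusted p = 0.0554). Nor did it pass when probe sets ending _x_at, _s_at or _a_at were dropped (0.27, adjusted p = 0.235), which left a Meis2 set with a mean level of 3.75. Of the dropped Meis2 sets, another above the array median passed upward (0.62, adjusted p = 0.0220), and a lower one differed by 0.58 (adjusted p = 0.114). The other Meis and Pbx genes did not pass, with differences of -0.81 for Meis1, 0.23 for Pbx2 and 0.20 for Pbx3. Of the sine oculis homologues, Six4 differed by 0.39 (adjusted p = 0.112) and Six2 by 0.02.

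**Figure D3:**
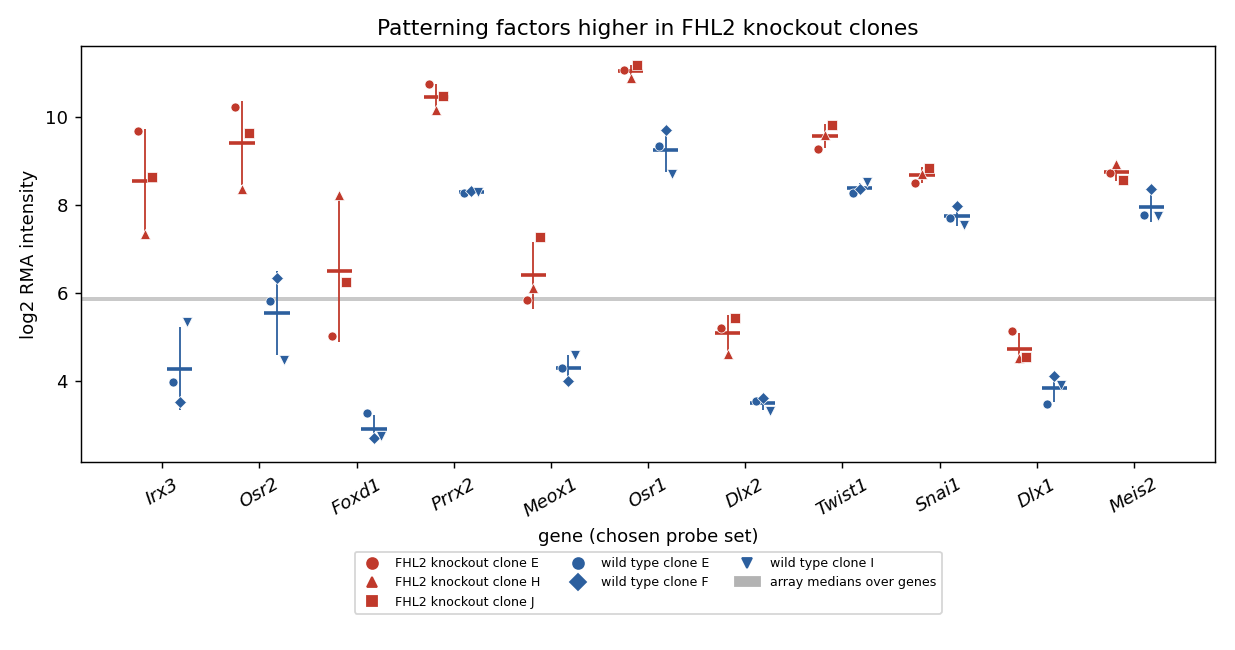
Log2 RMA intensity of the 11 patterning factors that rose, with 1 point per clone, horizontal bars for group means and vertical lines for 1 SD (n = 3 clones per genotype; FHL2 knockout red, wild type blue). The grey band spans the medians of the 6 arrays over all genes (5.81 to 5.90). Irx3 and Osr2 lie above the band in all knockout clones, Prrx2, Osr1, Twist1, Snai1 and Meis2 lie above it in all 6 clones, and Dlx1 and Dlx2 lie below it in all 6.

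Knockout clone H differed from knockout clones E and J in many of these factors. The SD among knockout clones exceeded 1 in 7 of the 54 factors (13%), beside 3.25% of all genes, and clone H lay farthest from the middle value in 5 of the 7. Clone H was likewise the farthest in 492 of the 591 genes with such an SD, a share of all genes no lower than that of the patterning factors. Among wild type clones the SD exceeded 1 in 0 of the 54. Foxd1, a forkhead factor of kidney stroma, read 5.02, 8.23 and 6.24 in knockout clones, against 3.27, 2.68 and 2.73 in wild type clones. It was highest in clone H but above wild type in all knockout clones, and its rise of 3.60 (SE 0.75, adjusted p = 0.0220) was 2.74 without clone H (adjusted p = 0.00339). Foxd1 did not pass with knockout clone J left out (0.0658), nor with any of the wild type clones left out (0.0693 to 0.0750). Foxf2, of splanchnic mesoderm, read 4.12, 6.64 and 4.05 in knockout clones, against 4.20, 4.50 and 4.23 in wild type clones. Clone H alone was high there, and the difference of 0.63 (SE 0.68) did not pass (adjusted p = 0.581). Meox2, which acts in somites and vessels, showed the opposite, with 5.76, 2.82 and 5.45 in knockout clones, against 2.55, 2.74 and 2.84 in wild type clones. Clone H lay within the wild type range, and the difference of 1.97 (SE 0.74) did not pass (adjusted p = 0.120), though it did without clone H. Snai2 read 11.45, 8.90 and 10.27 in knockout clones, against 10.41, 10.51 and 10.58 in wild type clones, so clones E and H lay on opposite sides of a narrow wild type range. Meis1 read 5.68, 7.59 and 6.22 in knockout clones, against 7.34, 7.53 and 7.05 in wild type clones. Foxp1, a forkhead factor with wide expression, read 8.91, 9.94 and 8.84 in knockout clones, against 9.87, 10.14 and 10.14 in wild type clones. Both were lower in clones E and J than in every wild type clone and within or near the wild type range in clone H, and both passed downward when clone H was left out. With all clones Foxp1 differed by -0.82 (adjusted p = 0.113). Another Foxp1 probe set passed downward with all clones (-1.38, adjusted p = 0.0498), with clone H at 8.46 against 8.81 to 9.07 in wild type clones. The remaining Foxp1 sets did not pass.

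**Figure D4:**
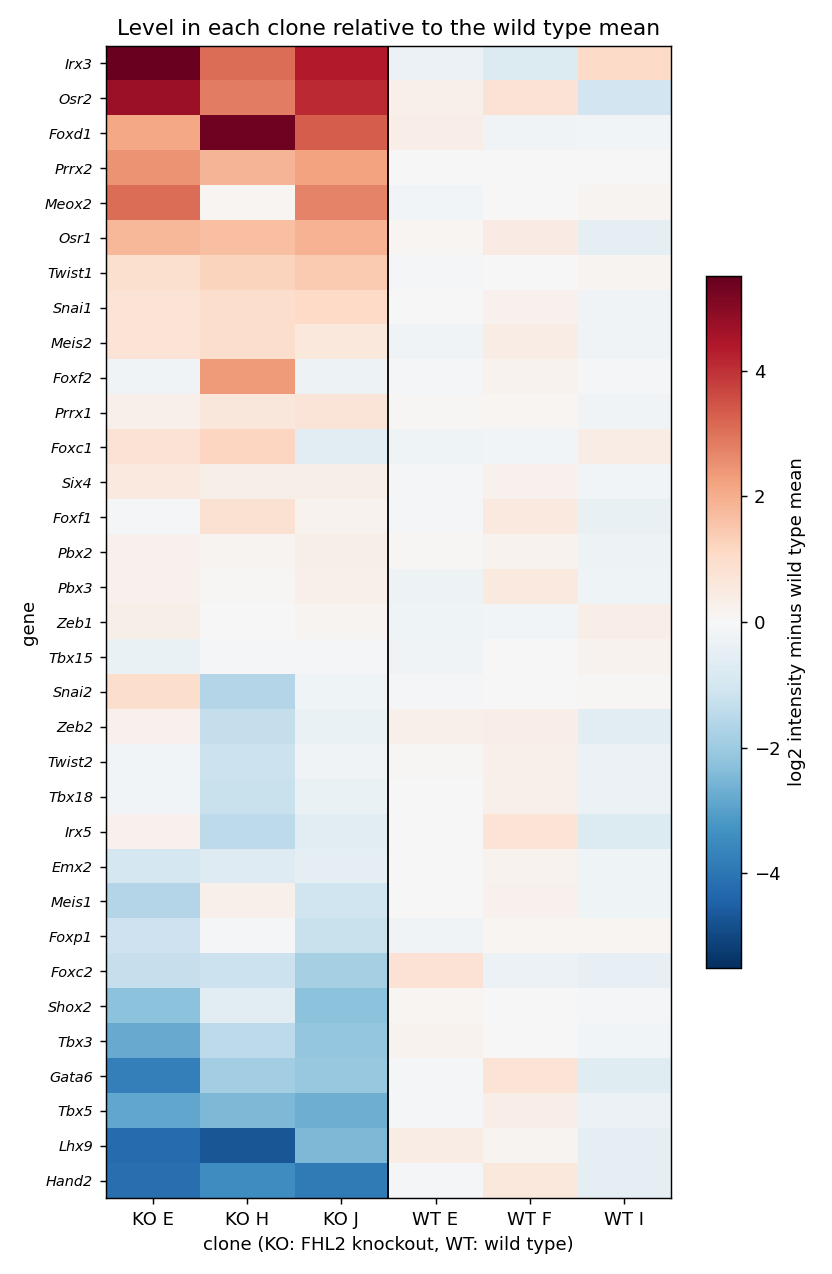
Level of 33 patterning factors in each clone minus the mean of the 3 wild type clones, in log2 units (red higher, blue lower; the colour scale ends at 5.5 either way), for the 30 expressed factors and the further 3 whose SD among knockout clones exceeded 1. Genes are ordered by the difference between genotypes. Foxf2 is raised in knockout clone H alone, and Meox2 is raised in knockout clones E and J but not in clone H.

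Neighbouring genes on the chromosome shifted with genotype around several factors. The median difference of the 40 nearest measured genes ran from -1.27 at Zeb1 and -1.08 at Dlx5 to 0.81 at Shox2. It was -0.80 at Osr2, -0.57 at Hand2 and 0.58 at Osr1. Of the factors just named, it ran against the difference of the factor itself at Zeb1, Dlx5, Osr2 and Shox2, and with it at Hand2 and Osr1. Among the other factors that passed, it ran against the difference at Prrx2, Emx2, Meis2, Pax3 and Gata6. With these medians subtracted in each clone, 19 of the 20 factors still passed, Snai1 being the exception, and Barx1, Dlx5 and Zeb1 passed in addition. At Barx1, Dlx5 and Zeb1 the neighbours' median was lower in knockout clones, while the factors themselves differed by 0.36, 0.12 and 0.15. Over all genes 22.2% passed under that subtraction, beside 19.0% without it.

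A list of 71 relatives and partners of the 54 factors, of which 64 were measured, was read the same way. Of these, 3 rose and 3 fell (9.38% passed, beside 19.0% of all genes), and 58 did not pass. In all 22 were expressed in at least 1 genotype (34.4%, beside 50.9% of all genes). Over all genes, those expressed in at least 1 genotype passed more often (32.1%). The shares of 9.38% and 19.0% thus come from sets unlike in expression. Dach2, a vertebrate homologue of the fly gene dachshund, read 3.99, 3.81 and 3.70 in knockout clones, against 6.96, 7.67 and 7.18 in wild type clones. It fell by 3.44 (SE 0.20, adjusted p = 5.84e-04), and its groups lay on either side of the array median. Gata3, a zinc-finger factor, fell by 1.88 (SE 0.29, adjusted p = 0.00862), whereas its relative Gata2 rose by 0.89 (SE 0.15, adjusted p = 0.0105). Tcf12, an E protein and partner of Twist and Hand factors, fell by 0.67 (SE 0.16, adjusted p = 0.0305). Mkx, the homeobox factor Mohawk of tendon, rose by 2.06 (SE 0.27, adjusted p = 0.00575). Ebf2, a helix-loop-helix factor of mesenchyme, rose by 1.93 (SE 0.36, adjusted p = 0.0160). Ebf2 read below the array median in every clone, and Mkx in every clone but knockout clone J, at 5.91. Neither Mkx nor Ebf2 therefore counted as expressed in either genotype. Of the E protein antagonists, Id1 and Id2 differed by 1.86 and 1.80 and did not pass (adjusted p = 0.0988 and 0.160).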

How the data were processed

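RNA of 6 clones was labelled by Affymetrix's one-cycle method for 3′ expression arrays, per the labels' protocols, and read on 1-colour arrays with 45101 probe sets. The deposited values are log2 intensities made with RMA, per the submitters' processing notes; its version and settings are not stated there. Values of wild type clone E carry 9 decimals and the others 3, and whether its array was processed apart from the others is not stated and was not tested. Arrays have no read depth, and 3 clones per genotype limit the precision (median SE 0.141). Genotype and clone came from sample titles.

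Left out were 64 control probe sets, 932 with several symbols and 9160 without a gene name. The other 34945 represented 18193 genes, by the probe set with the highest mean; 34741 had their gene ID in RefSeq's table (GRCm38.p6) and 0 symbols changed. The fit used limma 3.58.1 in R 4.3.3 (lmFit, eBayes, genotype alone) over all genes and was tested on simulated data. Other probe sets were read from a fit over all 34945. Full values are given for the factors that passed and for some that did not, with groups apart or overlapping. Tbx2, Six4 and Dlx5, whose groups lay apart without passing, are given by their differences alone.

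The members and lists were chosen with earlier results of these data known. Alternatives were a trended robust prior, renormalization, array centring, a level filter, averaged probe sets, dropping _x_at, _s_at and _a_at sets, array weights, subtraction of the median of 40 neighbouring genes, a 2-fold threshold, expression at the 40th or 60th percentile, and leaving out each clone. Some listed genes were not analysed here. Figures used matplotlib 3.10.9 in Python 3.11.15.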

Additional observations from a re-analysis of the deposited data

How the results depend on the processing

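Across the settings that keep all clones, the number of patterning factors that passed was 15 to 23, where the 15 came from the 29 factors left by a filter on level (34.5% of all genes left by it passed) and the 23 from array weights (27.1%). At the same threshold the share over all genes was 17.6% to 22.2% under the other such settings. The number of factors ran from 13 to 22 when 1 clone was left out, and the number over all genes from 1661 to 4750. With a 2-fold threshold 15 factors and 1495 genes passed. The number of expressed factors was 35 at the 40th percentile, 29 at the 60th, 25 without _x_at, _s_at and _a_at probe sets and 30 to 33 when 1 clone was left out. No factor that passed changed direction under any of these settings. Besides the clones named above, Shox2 did not pass with a trended robust prior (adjusted p = 0.0556), quantile normalization again (0.0508) or averaged probe sets (0.0537). Prrx1 passed under 5 settings that keep all clones. Leaving out wild type clones E or F each moved the number of factors by over 1.5 times, to 13. No measure of signal over background was used, which limits what can be said of sizes where a group reads below the array median. No paired analysis was possible because the clones of the genotypes share 1 letter alone, and the labels do not tie the clones of that letter to each other.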
